A study of Homo sapiens with 14 samples.

Results

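The 52 genes described here encode proteins that fold, process, export or destroy secretory proteins in the endoplasmic reticulum (ER), together with the sensors of the unfolded protein response. They were taken as a given list, and each gene was read from the probe set that carried its symbol alone and had the highest mean level, provided that 2 or more arrays reached a log2 level of 4. Of the 52, 49 were measured, among 9301 genes tested in all. ERO1B, an ER oxidase, had 2 probe sets and never exceeded a log2 level of 2.51. SYVN1, the ubiquitin ligase that partners SEL1L, was represented by a probe set shared with other symbols, and for SEC61G, the small subunit of the translocon, no probe set carried the symbol in the platform table. The lowest level of a measured member on any array was 6.37, well above the filter, so no member entered through 1 group alone.

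Secretory proteins enter the ER through the SEC61 channel, lose their signal peptide to the signal peptidase, and are folded by chaperones and disulfide isomerases before COPII vesicles carry them to the Golgi. Proteins that fail to fold are extracted to the cytosol and degraded, which is called ER-associated degradation, and an excess of them activates the sensors IRE1 (gene ERN1), PERK (gene EIF2AK3) and ATF6. Plasma cells, and the myelomas that arise from them, secrete immunoglobulin in bulk and depend on XBP1, the transcription factor that IRE1 activates by splicing its mRNA.

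All RNA came from MM1S, a multiple myeloma cell line of human origin that is sensitive to glucocorticoids, grown with 10% fetal bovine serum and treated for 6 h. There were 7 groups of 2 arrays each. One group was left untreated. The single agents were salmeterol (1 nM), a beta-2 adrenergic agonist, CGS-21680 (12.5 nM), an adenosine receptor agonist that like salmeterol acts through cyclic AMP, and the synthetic glucocorticoid dexamethasone, given either low (25 nM) or high (2 µM). The last pair of groups received 1 of the agonists together with the low dose. The design asks how an agonist alone, the glucocorticoid alone and both at once alter expression. Replicates are labelled as biological, without further detail on separate cultures, so p-values measure the spread among these arrays, which may be technical, and the cells are a single line.

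Values below are log2 of the deposited probe set intensities. A level is a log2 intensity and is comparable between arrays, not between genes. A difference is the mean of 2 arrays minus the mean of 2 others, with its standard error (SE) or 95% interval from 1 limma model of all 14 arrays. A gene was called when its Benjamini-Hochberg adjusted p over all 9301 genes was under 0.05; the adjusted p-values and SEs given for genes come from that model. For 2 arrays a group, the smallest p that exact permutation allows is 0.333.

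The arrays were alike in overall level, with a median log2 of 7.44 to 7.63 over the genes tested and a correlation between the arrays of a group of 0.987 to 0.992 across genes. The number of arrays limits the precision. The second high dexamethasone array showed the smallest excess of the 3′ over the 5′ GAPDH probe set, 0.735 against 0.887 to 1.31 on the remaining arrays. Its excess for ACTB, 1.65, lay within the 1.25 to 2.23 of the others. In the high dexamethasone group 10 of the 49 members differed by over 0.5 between the arrays, against 0 to 5 in the other groups. All 8 plasma cell markers passed the filter, and none of 3 B cell, 3 T cell and 3 monocyte markers with a probe set did. Of 5 stromal markers COL1A1 passed, at 7.07 to 7.43, and of 2 erythroid markers HBB, at 7.15 to 7.69. FKBP5 and TSC22D3, glucocorticoid-induced genes, rose by 3.98 and 6.03 with low dexamethasone, and PDE4B, a cyclic AMP-induced phosphodiesterase, rose by 3.37 with salmeterol and 2.35 with CGS-21680. Some plasma cell markers moved with the combinations. Of the 8, 5 (SDC1, TNFRSF17, IRF4, SLAMF7 and POU2AF1) were lower in each combination than in untreated cells. For the others on the list, CD38, PRDM1 and JCHAIN, no direction is given here. Over all genes, 13.7% were called lower with salmeterol and low dexamethasone and 8.13% with CGS-21680 and low dexamethasone. The median over the 8 markers was -1.42 for the former and -0.74 for the latter combination. What part the marker changes have in the ER results was not tested. In such bulk RNA a change in the mix of cells and a change per cell cannot be told apart.

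Across the 7 groups, 15 of the 49 members differed (30.6%), against 25.9% of all genes, so the members as a set moved about as often as the rest. Of the 14 members called in at least 1 of the 15 comparisons, HERPUD1, SEL1L, EDEM1, EDEM3, DERL3 and SELENOS belong to ER-associated degradation; SPCS1, SPCS2, SPCS3, SEC11C and SEC62 to entry and signal peptide cleavage; ERN1 and EIF2AK3 to the sensors; and WFS1 to the ER membrane. XBP1 and SEC31A were called only by the test over all groups, and SEC62 was not called by that test (adjusted p = 0.0835). The other 33 measured members were called nowhere, among them all 13 chaperones and co-chaperones and all 5 isomerases.

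**Figure D1:**
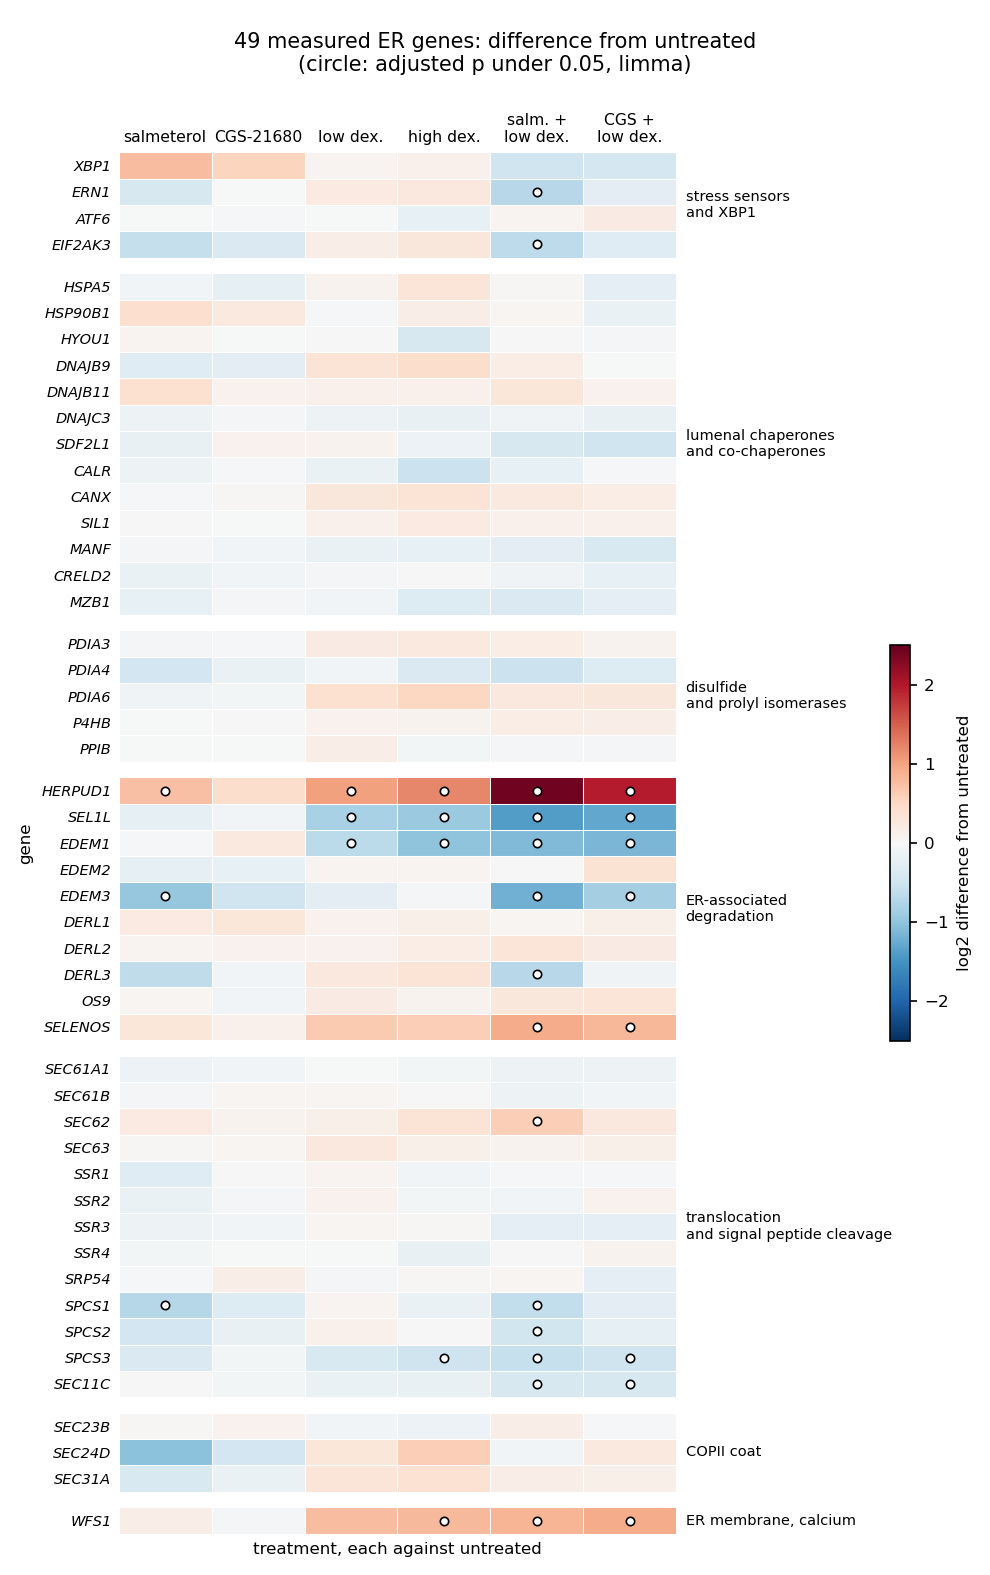
Log2 difference from untreated cells for the 49 measured members (rows, grouped by role) under each of 6 treatments (columns), with the colour running from blue (lower) to red (higher); a circle marks an adjusted p under 0.05 in limma. Circles fall on 14 rows, most of them in the degradation and signal peptide cleavage groups and in the 2 columns of combinations, and no circle falls on a chaperone or isomerase.

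The combinations with low dexamethasone called the most members. With salmeterol and low dexamethasone against untreated, 14 of 49 members were called (28.6%), against 24.6% of all genes; 4 were higher and 10 lower, against 10.9% and 13.7% of all genes. The median difference was -0.03 over the members and -0.000885 over all genes. With CGS-21680 and low dexamethasone, 8 were called (16.3%), against 15.8% of all genes, 3 of them higher and 5 lower, against 7.66% and 8.13%. The single agents called fewer. Salmeterol called 3 members (6.12%), against 5.97% of all genes, 1 higher and 2 lower, against 1.73% and 4.24%. Low dexamethasone also called 3 members, against 4.66% of all genes, 1 higher and 2 lower, against 2.47% and 2.18%. High dexamethasone called 5 (10.2%), against 8.58% of all genes, 2 higher and 3 lower, against 4.37% and 4.21%. CGS-21680 alone called 0, against 0.656% of all genes, and 2 members (4.08%) had an unadjusted limma p under 0.05, against 8.43% of all genes. In each case the share of members called lay near that of all genes. Of all genes called with salmeterol alone, 29.0% were higher, and 42.8% after quantile normalization.

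Against low dexamethasone alone, the salmeterol combination called 8 members (16.3%), against 14.4% of all genes; 1 was higher and 7 lower, against 6.29% and 8.13%. The CGS-21680 combination called 1 higher and 0 lower, against 3.4% of all genes in both directions together, 1.75% higher and 1.64% lower. Against high dexamethasone, the salmeterol combination called 7 members, against 14.6% of all genes, with 1 higher and 6 lower beside 6.3% and 8.3%. The CGS-21680 combination called 1 higher and 0 lower there, against 2.72% of all genes, 1.29% higher and 1.43% lower. These comparisons share arrays with those against untreated. The other 5 comparisons called no member in limma. The interaction of salmeterol with low dexamethasone, which is the agonist's effect beside dexamethasone minus its effect alone, called 1.61% of all genes. At an unadjusted limma p under 0.05 there were 2 members (4.08%), against 11.8% of all genes. For the CGS-21680 interaction, 0.151% of all genes were called, and 4 members (8.16%) had an unadjusted p under 0.05, against 6.35% of all genes. High against low dexamethasone called 0% of all genes, and 0 members were under that unadjusted p, against 3.53% of all genes. CGS-21680 against salmeterol called 0.495% of all genes, with 4 members (8.16%) under it, against 12.5%. The 2 combinations against each other called 1.2%, with 5 members (10.2%) under it, against 10.1%. Of all genes called, 74.0% were higher for the salmeterol interaction and 56.5% for CGS-21680 against salmeterol, and 63.1% and 37.0% after quantile normalization. No difference between the agonists, or departure from additivity, was therefore resolved for any member.

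Promoter sequences bear on these genes because the unfolded protein response acts through short elements near their start sites. The ER stress response element (ERSE, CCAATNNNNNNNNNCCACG) is read by ATF6 with the CCAAT-binding factor, and ERSE-II (ATTGGNCCACG) by ATF6 and XBP1. Both strands of the 300-base windows of RefSeq starts (GRCh38.p14; 250 bases before and 50 after the start) were searched, and 47 of the 52 members had a window; PDIA3, DERL1, DERL3, SPCS1 and SEC24D did not. ERSE was present in 7 of the 47 (14.9%), namely HSPA5, HSP90B1, CALR, CANX, CRELD2, XBP1 and ERO1B, and in 22 of 27305 windows in all (0.0806%). ERSE-II was present in 3 (6.38%), namely HERPUD1, HYOU1 and SDF2L1, and in 15 of all windows (0.0549%). The stretches below, each the element with 30 bases on either side, 5′ to 3′ on the gene's strand, show the element in capitals for the 3 ERSE-II members and for 3 of the ERSE members; of these 6 genes HERPUD1 was called in a comparison and the others were not.
HERPUD1: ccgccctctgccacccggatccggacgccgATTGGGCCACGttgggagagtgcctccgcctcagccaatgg
SDF2L1: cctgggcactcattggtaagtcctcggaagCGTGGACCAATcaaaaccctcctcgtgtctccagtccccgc
HYOU1: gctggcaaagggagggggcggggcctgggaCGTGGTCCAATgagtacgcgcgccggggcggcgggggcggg
HSPA5: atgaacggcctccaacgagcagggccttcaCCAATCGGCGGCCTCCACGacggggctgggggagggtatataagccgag
XBP1: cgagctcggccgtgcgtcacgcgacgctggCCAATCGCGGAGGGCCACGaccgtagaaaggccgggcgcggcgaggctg
HSP90B1: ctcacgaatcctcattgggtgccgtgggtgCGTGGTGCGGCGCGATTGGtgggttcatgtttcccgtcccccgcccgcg
The HERPUD1 stretch lies at chr16:56931995-56932065 on the plus strand, with the first base of its element 117 bases before the start. The SDF2L1 stretch lies at chr22:21642084-21642154 on the plus strand and the HYOU1 stretch at chr11:119057244-119057314 on the minus strand, and both carry ERSE-II on the strand opposite to the gene. The HSPA5 stretch lies at chr9:125241361-125241439 on the minus strand and the XBP1 stretch at chr22:28800573-28800651 on the minus strand, in the first of its annotated windows. The HSP90B1 stretch lies at chr12:103930291-103930369 on the plus strand, and the element shown is on the opposite strand. The HSP90B1 window held another ERSE on the gene's own strand, with its first base at -194 from the start. The HYOU1 window held another ERSE-II, at -185 and also on the opposite strand. A match is a description of the letters, not of a bound site.

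Other elements were counted in the same windows. The full cyclic AMP response element (TGACGTCA) was in 0 of the 47 member windows and 1.98% of all windows; its short form (TGACG), which also matches inside the full form, was in 17 (36.2%) and 25.0%. The core ACGT was in 32 (68.1%) and 33.7%, and the longer TGACGTGG, an unfolded protein response element core that contains ACGT and TGACG, was in SEC62 and HYOU1 and in 0.795% of all windows. Of the 9 measured members with ERSE or ERSE-II, 1 (HERPUD1) was called in any comparison, against 11 of the 35 measured members whose window had neither. SEL1L, EDEM1, EDEM3 and SELENOS held neither element within their windows.

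HERPUD1 encodes HERP, an ER membrane protein that recruits the degradation machinery and is itself induced by ER stress; it showed the widest range of the 49 members. Its level was 12.86 and 13.21 on the untreated arrays, 13.28 and 13.67 with CGS-21680, 13.71 and 13.85 with salmeterol, 13.95 and 14.16 with low dexamethasone, 14.17 and 14.34 with high dexamethasone, 14.95 and 15.05 with CGS-21680 and low dexamethasone, and 15.45 and 15.47 with salmeterol and low dexamethasone. Every treated array was above both untreated arrays, and the arrays of both combinations were above all others. HERPUD1 rose by 2.43 (SE 0.158, 5.37-fold, adjusted p = 8.01e-06) with salmeterol and low dexamethasone and by 1.97 (SE 0.158, 3.91-fold, adjusted p = 6.21e-05) with CGS-21680 and low dexamethasone. It also rose with high dexamethasone (1.22, adjusted p = 0.00174), low dexamethasone (1.02, adjusted p = 0.00626) and salmeterol (0.75, adjusted p = 0.0254), while the difference with CGS-21680 alone was 0.44 (95% interval 0.09 to 0.80, adjusted p = 0.43).

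Adding an agonist to low dexamethasone raised HERPUD1 further. The rise over low dexamethasone was 1.41 (2.65-fold, adjusted p = 0.000424) with salmeterol and 0.95 (1.93-fold, adjusted p = 0.0149) with CGS-21680. Both combinations also exceeded high dexamethasone, by 1.21 (adjusted p = 0.00107) and 0.75 (adjusted p = 0.0419). The interactions were 0.66 (95% interval 0.16 to 1.16, adjusted p = 0.253) and 0.50 (0.00 to 1.01, adjusted p = 0.775), so a rise beyond additivity was not called. In the order of means, which ran from untreated through CGS-21680, salmeterol, low and high dexamethasone and the CGS-21680 combination to the salmeterol combination, 1 pair of neighbours compared directly was called, high dexamethasone and the CGS-21680 combination. Of the others, CGS-21680 was not called against untreated, CGS-21680 minus salmeterol was -0.30 (adjusted p = 0.473), high minus low dexamethasone 0.20 (adjusted p = 1), and the CGS-21680 minus the salmeterol combination -0.46 (adjusted p = 0.298). Salmeterol and low dexamethasone were not compared.

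HERPUD1 was also read by a second, weaker probe set, whose differences from untreated were 0.15 with salmeterol, -0.21 with CGS-21680, 0.13 with low dexamethasone, 0.59 with high dexamethasone, 1.35 with salmeterol and low dexamethasone and 0.25 with CGS-21680 and low dexamethasone. The mean of both probe sets rose by 1.89 and 1.11 with the combinations and by 0.90 with high dexamethasone. On that mean 4 calls were lost: salmeterol (0.45, adjusted p = 0.32), low dexamethasone (0.58, adjusted p = 0.229), and CGS-21680 with low dexamethasone against low dexamethasone (0.53, adjusted p = 0.32) or against high dexamethasone (0.20, adjusted p = 0.729). The calls for high dexamethasone, for both combinations against untreated and for the salmeterol combination against either dose of dexamethasone held in all 14 fits that left out 1 array. The salmeterol call was lost without untreated replicate 1 or either salmeterol array (adjusted p up to 0.161) and without the level filter (0.0709). The low dexamethasone call was lost without untreated replicate 1 or low dexamethasone replicate 2 (up to 0.0598), and that of the CGS-21680 combination over low dexamethasone without low dexamethasone replicate 1 or either array of the combination (up to 0.0989). The call over high dexamethasone held in 4 of the 14 fits, those without an untreated or a CGS-21680 array (up to 0.156 in the others), and was lost without the filter (0.106).

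SEL1L and EDEM1 moved the other way. SEL1L is the adaptor that stabilises the HRD1 ubiquitin ligase, and EDEM1 a mannosidase-like protein that marks misfolded glycoproteins for degradation. SEL1L was at 10.63 and 10.62 untreated, 10.30 and 10.51 with salmeterol, 10.59 and 10.48 with CGS-21680, 9.77 and 9.86 with low dexamethasone, 9.48 and 9.91 with high dexamethasone, 9.19 and 9.27 with salmeterol and low dexamethasone, and 9.19 and 9.47 with CGS-21680 and low dexamethasone. All 8 arrays with dexamethasone were below the 6 without it. SEL1L fell by 1.40 (SE 0.152, 2.63-fold, adjusted p = 0.000183) with salmeterol and low dexamethasone, by 1.29 (SE 0.152, 2.44-fold, adjusted p = 0.000575) with CGS-21680 and low dexamethasone, by 0.93 (adjusted p = 0.00607) with high and by 0.80 (adjusted p = 0.0176) with low dexamethasone. Its differences with the agonists alone were -0.22 (95% interval -0.56 to 0.12) and -0.09 (-0.43 to 0.26). Salmeterol added to low dexamethasone lowered it by a further 0.59 (adjusted p = 0.0294), and CGS-21680 gave -0.48 (adjusted p = 0.144).

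EDEM1 was at 9.76 and 9.84 untreated, 9.64 and 9.89 with salmeterol, 10.04 and 10.04 with CGS-21680, 9.01 and 9.24 with low dexamethasone, 8.99 and 8.58 with high dexamethasone, 8.74 and 8.65 with salmeterol and low dexamethasone, and 8.56 and 8.75 with CGS-21680 and low dexamethasone. Again every array with dexamethasone lay below every array without it. EDEM1 fell by 1.10 (SE 0.152, adjusted p = 0.000706) and 1.14 (SE 0.152, adjusted p = 0.0011) with the salmeterol and CGS-21680 combinations, by 1.01 (adjusted p = 0.00384) with high and by 0.67 (adjusted p = 0.0387) with low dexamethasone. Unlike SEL1L it had 1 probe set past the filter. The combinations were -0.43 (adjusted p = 0.0979) and -0.46 (adjusted p = 0.166) from low dexamethasone alone, and neither was called.

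The SEL1L and EDEM1 calls for high dexamethasone and for both combinations against untreated held in all 14 fits that left out an array. That of SEL1L for low dexamethasone was lost without any 1 of the 2 untreated or 2 low dexamethasone arrays (adjusted p up to 0.104) and without the filter (0.0546), and that for salmeterol added to low dexamethasone without any 1 of the 4 arrays compared (up to 0.143) and without the filter (0.0788). EDEM1 with low dexamethasone held in 6 of 14 fits, and was lost without either array of the untreated, low dexamethasone, CGS-21680 or salmeterol with low dexamethasone group (up to 0.192) and without the filter (0.101). SEL1L had 2 further probe sets, with differences of -0.15 and -0.72 in the salmeterol combination and 0.40 and -0.26 with high dexamethasone. On the mean of its 3 probe sets it fell by 0.76 and 0.57 with the combinations, but the calls for low dexamethasone (-0.43, adjusted p = 0.155), high dexamethasone (-0.26, adjusted p = 0.324) and salmeterol over low dexamethasone (-0.33, adjusted p = 0.18) were lost.

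EDEM3 and DERL3 fell in the salmeterol combination and were not called with either dose of dexamethasone alone. EDEM3 is a mannosidase of the same pathway as EDEM1, and DERL3 a membrane protein of the retrotranslocation complex that is prominent in secretory cells. EDEM3 was at 9.67 and 9.65 untreated, 8.50 and 8.89 with salmeterol, 9.08 and 9.25 with CGS-21680, 9.24 and 9.56 with low dexamethasone, 9.30 and 9.93 with high dexamethasone, 8.46 and 8.45 with salmeterol and low dexamethasone, and 8.62 and 9.00 with CGS-21680 and low dexamethasone. The 2 arrays of the salmeterol combination were the lowest of the 14, the arrays with an agonist were all below the untreated ones, and the high dexamethasone arrays overlapped the untreated ones. EDEM3 fell by 1.21 (SE 0.224, 2.31-fold, adjusted p = 0.00385) with salmeterol and low dexamethasone, by 0.96 (adjusted p = 0.0375) with salmeterol and by 0.85 (adjusted p = 0.0312) with CGS-21680 and low dexamethasone. Salmeterol added to low dexamethasone lowered it by 0.95 (adjusted p = 0.0209), and the salmeterol combination was 1.16 below high dexamethasone (difference -1.16, adjusted p = 0.00845). Its interaction with low dexamethasone was 0.02 (95% interval -0.70 to 0.73).

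DERL3 was at 9.54 and 9.38 untreated, 9.26 and 8.40 with salmeterol, 9.31 and 9.43 with CGS-21680, 9.78 and 9.69 with low dexamethasone, 9.80 and 9.80 with high dexamethasone, 8.79 and 8.75 with salmeterol and low dexamethasone, and 9.37 and 9.34 with CGS-21680 and low dexamethasone. The 4 arrays with salmeterol, alone or beside low dexamethasone, were the lowest. The salmeterol arrays differed from each other by 0.858, the widest gap of any member in that group. DERL3 fell by 0.96 (SE 0.218, adjusted p = 0.0172) when salmeterol was added to low dexamethasone and by 0.69 (adjusted p = 0.0462) in that combination against untreated, and was 1.03 lower than with high dexamethasone (difference -1.03, adjusted p = 0.0135). The difference with salmeterol alone was -0.63 (95% interval -1.12 to -0.14, adjusted p = 0.139).

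Of these 8 calls, EDEM3 in the salmeterol combination against untreated held in all 14 fits and under all 7 other alternatives. EDEM3 with salmeterol held in 4 of 14 fits, those without a high dexamethasone or a CGS-21680 with low dexamethasone array (adjusted p up to 0.181 in the others), and was lost without the filter (0.121) and on the mean of 3 probe sets (-1.20, adjusted p = 0.0503), where the difference was larger. EDEM3 in the CGS-21680 combination was lost without either untreated array or the first array of the combination (up to 0.167), without the filter (0.109) and on the mean of the probe sets (-0.93, adjusted p = 0.0683). EDEM3 over low dexamethasone was lost without low dexamethasone replicate 2 or either array of the salmeterol combination (up to 0.136), without the filter (0.0767) and on that mean (-0.84, adjusted p = 0.101), and against high dexamethasone without high dexamethasone replicate 2 (0.0506) and on that mean (-0.95, adjusted p = 0.0669). DERL3 in the salmeterol combination against untreated held in 2 of 14 fits, those without a salmeterol array (up to 0.197 in the others), and was lost without the filter (0.144). DERL3 over low dexamethasone was lost without any 1 of the 4 arrays compared (up to 0.0892) and without the filter (0.0652), and against high dexamethasone without high dexamethasone replicate 2 or either array of the combination (up to 0.0663), without the filter (0.0518) and on the mean of 3 probe sets (-0.37, adjusted p = 0.0674). On that mean the DERL3 differences of the salmeterol combination from untreated and from low dexamethasone were -0.42 and -0.42.

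SELENOS, a selenoprotein that links the derlins to the p97 ATPase, rose with both combinations. Its level was 10.13 and 10.46 untreated, 10.44 and 10.77 with salmeterol, 10.29 and 10.56 with CGS-21680, 10.85 and 11.04 with low dexamethasone, 10.94 and 10.88 with high dexamethasone, 11.22 and 11.23 with salmeterol and low dexamethasone, and 11.28 and 10.98 with CGS-21680 and low dexamethasone. All arrays with dexamethasone were above all arrays without it. SELENOS rose by 0.93 (SE 0.166, 1.91-fold, adjusted p = 0.00303) and 0.83 (SE 0.166, 1.78-fold, adjusted p = 0.00864) with the salmeterol and CGS-21680 combinations. With low and high dexamethasone the differences were 0.65 (adjusted p = 0.0617) and 0.62 (adjusted p = 0.0517). The salmeterol call held in all 14 fits, and the CGS-21680 call was lost without untreated replicate 1 or the first array of that combination (up to 0.0693).

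Of the 10 degradation members measured, EDEM2, DERL1, DERL2 and OS9, which act in glycan trimming, retrotranslocation and lectin recognition, were called in no comparison. Against untreated, their differences with salmeterol and low dexamethasone were 0.01 for EDEM2 (95% interval -0.37 to 0.39), 0.04 for DERL1 (-0.33 to 0.42), 0.32 for DERL2 (0.07 to 0.56) and 0.29 for OS9 (-0.17 to 0.75). EDEM2 had the same value, 7.16, on both arrays of that combination, on untreated replicate 2 and on low dexamethasone replicate 1. Its interval is therefore a weak bound. The 3 other DERL1 probe sets gave -0.85, -0.55 and 0.21 in that comparison, so its value depends on the probe set. The group thus held 2 members that rose and 4 that fell in that comparison, beside 10.9% of all genes higher and 13.7% lower. The median difference of the group was 0.03.

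**Figure D2:**
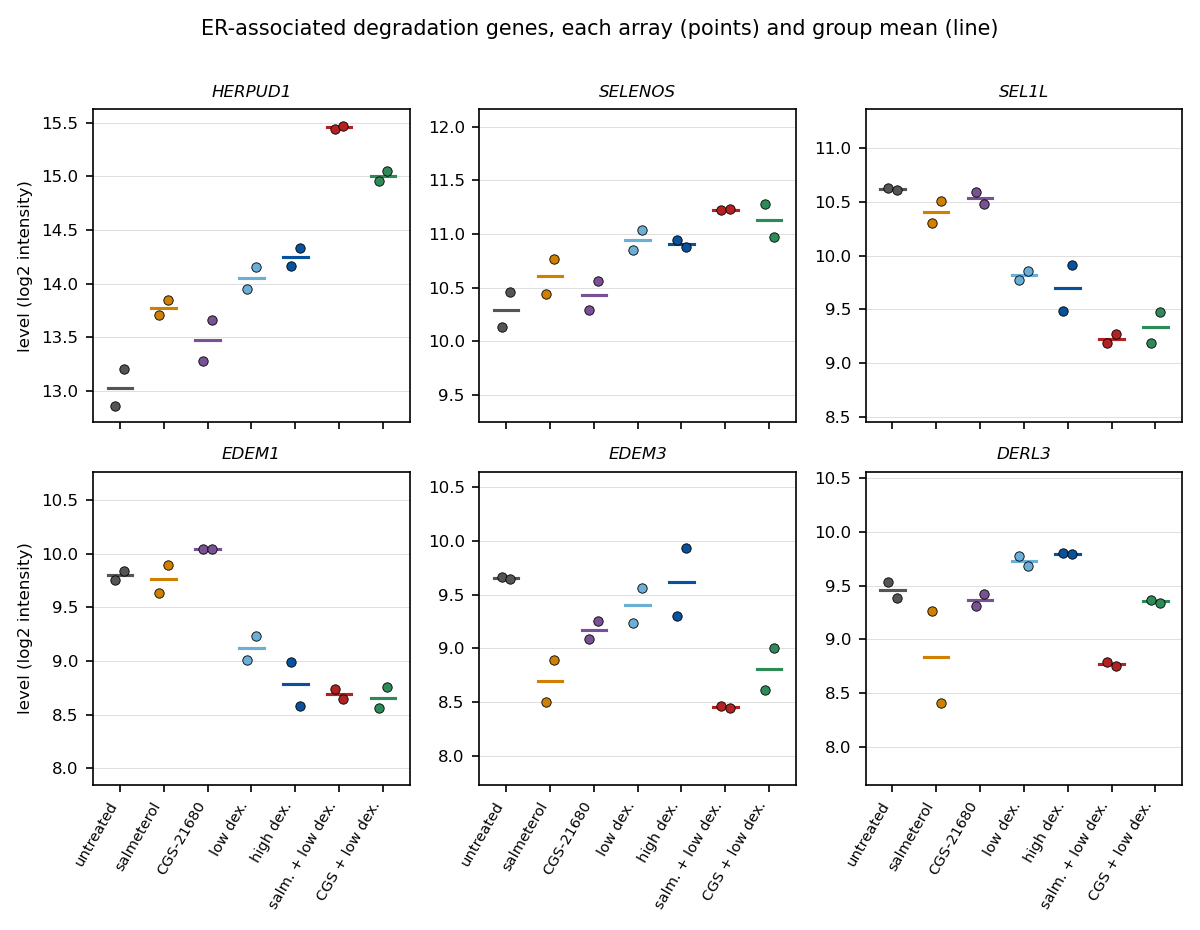
Level (log2 intensity) of 6 ER-associated degradation genes in each group; points are the 2 arrays of a group, lines their mean, and all panels span the same number of log2 units. HERPUD1 runs from 12.86 to 15.47; SELENOS is higher, and SEL1L and EDEM1 lower, on every array with dexamethasone, while DERL3 is lowest on the 4 arrays with salmeterol and EDEM3 on the 2 with salmeterol and low dexamethasone.

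Of the 4 sensor and XBP1 genes, 2 fell in the salmeterol combination and none rose in any comparison. Against untreated, 13.7% of all genes were lower in that combination. ERN1 encodes IRE1, the kinase and nuclease that splices XBP1. Its level was 9.95 and 10.05 untreated, 9.47 and 9.67 with salmeterol, 9.74 and 10.24 with CGS-21680, 10.07 and 10.37 with low dexamethasone, 10.20 and 10.34 with high dexamethasone, 9.18 and 9.43 with salmeterol and low dexamethasone, and 9.63 and 9.86 with CGS-21680 and low dexamethasone. The arrays of the salmeterol combination were the lowest of all. ERN1 fell by 0.70 (SE 0.182, adjusted p = 0.0204) against untreated, by 0.92 (adjusted p = 0.0092) against low dexamethasone and by 0.96 (adjusted p = 0.00749) against high dexamethasone in the salmeterol combination. With salmeterol alone the difference was -0.43 (95% interval -0.84 to -0.02, adjusted p = 0.225).

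EIF2AK3 encodes PERK, the kinase that slows translation under ER stress. It was at 9.59 and 9.29 untreated, 8.67 and 9.00 with salmeterol, 9.00 and 9.12 with CGS-21680, 9.42 and 9.79 with low dexamethasone, 9.66 and 9.80 with high dexamethasone, 8.67 and 8.91 with salmeterol and low dexamethasone, and 9.03 and 9.23 with CGS-21680 and low dexamethasone. All 8 arrays with an agonist lay below the 6 arrays without one. EIF2AK3 fell in the salmeterol combination by 0.65 (SE 0.175, adjusted p = 0.0232) against untreated, by 0.81 (adjusted p = 0.0134) against low and by 0.94 (adjusted p = 0.00715) against high dexamethasone. The difference was -0.60 (SE 0.175, adjusted p = 0.0833) with salmeterol alone and -0.38 (95% interval -0.77 to 0.02, adjusted p = 0.63) with CGS-21680 alone.

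These sensor calls depended on single arrays. Against untreated, that of ERN1 was lost without either untreated array or the first array of the combination (adjusted p up to 0.13), without the filter (0.0666) and on the mean of 2 probe sets (-0.53, adjusted p = 0.0909), and that of EIF2AK3 without untreated replicate 1 or the first array of the combination (up to 0.154) and without the filter (0.0718). Against low dexamethasone both were lost without low dexamethasone replicate 2 or the first array of the combination (up to 0.0747 for ERN1 and 0.0996 for EIF2AK3). Against high dexamethasone ERN1 was lost without high dexamethasone replicate 2 or the first array of the combination (up to 0.0632), and EIF2AK3 without the latter (0.0606).

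XBP1, the transcription factor of the response, was at 11.86 and 11.75 untreated, 12.44 and 12.72 with salmeterol, 12.32 and 12.38 with CGS-21680, 11.68 and 12.08 with low dexamethasone, 11.62 and 12.23 with high dexamethasone, 11.27 and 11.34 with salmeterol and low dexamethasone, and 10.94 and 11.77 with CGS-21680 and low dexamethasone. The arrays with an agonist alone were the 4 highest, and 3 of the 4 with an agonist and low dexamethasone the lowest. The test over all groups called XBP1 (adjusted p = 0.0389), but no pairwise comparison did. The differences from untreated were 0.78 with salmeterol (95% interval 0.16 to 1.40, adjusted p = 0.146), 0.55 with CGS-21680 (-0.07 to 1.17, adjusted p = 0.699), 0.08 with low and 0.12 with high dexamethasone, -0.50 (-1.12 to 0.12, adjusted p = 0.243) with salmeterol and low dexamethasone and -0.45 (-1.07 to 0.17, adjusted p = 0.348) with CGS-21680 and low dexamethasone. The interactions were the furthest from 0 of any of the 49 members, at -1.35 (-2.23 to -0.48, adjusted p = 0.166) for salmeterol and -1.08 (-1.95 to -0.20, adjusted p = 0.614) for CGS-21680; neither was called. The arrays of the CGS-21680 combination differed by 0.82, and the splicing of XBP1 mRNA was not measured.

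ATF6, the sensor that is cleaved in the Golgi to release a transcription factor, was called in no comparison. Its 14 arrays lay between 8.92 and 9.42, and its differences from untreated ran from -0.20 with high dexamethasone (95% interval -0.42 to 0.02) to 0.21 with CGS-21680 and low dexamethasone (-0.01 to 0.43). The same value, 9.14, was repeated on the second untreated, salmeterol and low dexamethasone arrays, so the narrow range is to be read with care. It had 3 weaker probe sets, and those did not all read the same: their differences were -0.51, -0.64 and -0.34 with salmeterol and -0.45, -0.76 and 0.06 in the salmeterol combination, none of them tested singly.

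**Figure D3:**
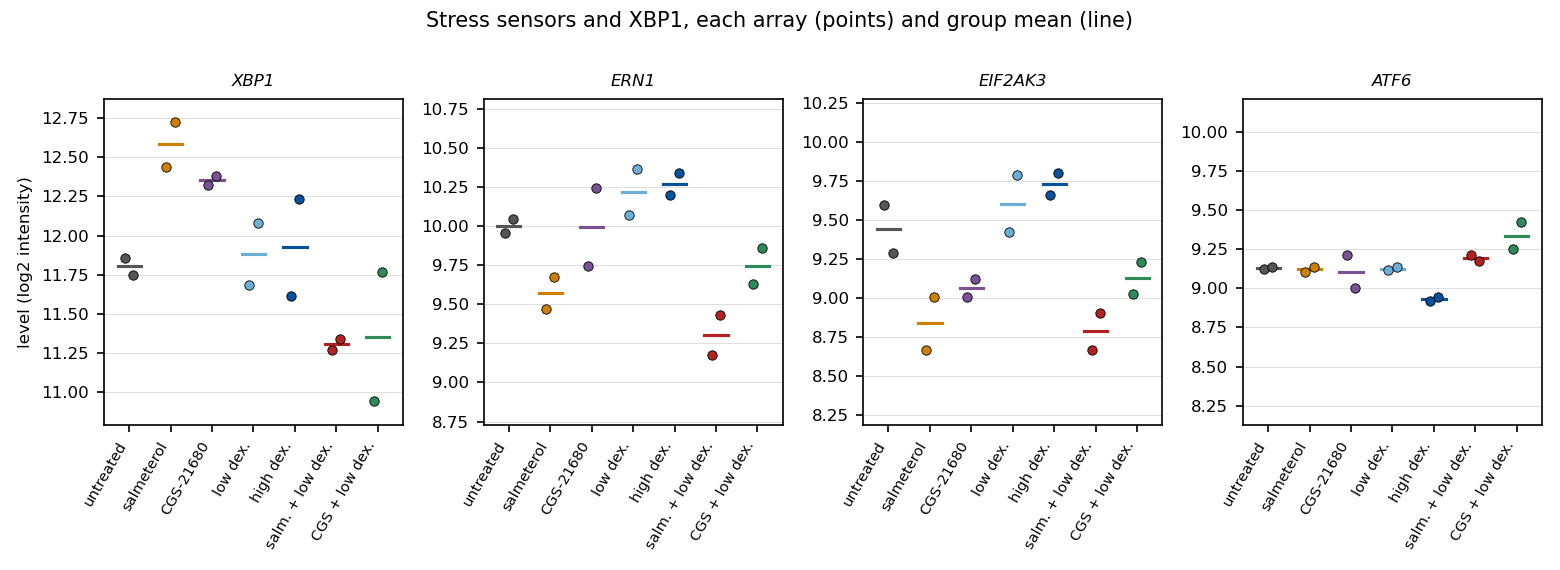
Level (log2 intensity) of XBP1 and of the 3 sensor genes ERN1, EIF2AK3 and ATF6 in each group, with points for the 2 arrays and lines for their mean, on panels of equal span. XBP1 is highest with an agonist alone (12.32 to 12.72); EIF2AK3 is at most 9.23 on the arrays with an agonist and at least 9.29 on the others, and ATF6 stays between 8.92 and 9.42.

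The folding machinery itself was not called. None of the 13 chaperones and co-chaperones and none of the 5 isomerases passed the threshold in any of the 15 limma comparisons. Of their 108 differences from untreated, 14 had an unadjusted limma p under 0.05. That count pools the 6 comparisons. Over all genes the share was 20.3% with salmeterol, 8.43% with CGS-21680, 17.5% with low and 22.5% with high dexamethasone. It was 35.1% in the salmeterol and 28.2% in the CGS-21680 combination. The lowest adjusted p of the folding genes was 0.0758, for PDIA4 in the salmeterol combination. The 108 differences ran from -0.55 to 0.53. The intervals were narrow enough to bound them: all 18 genes had a 95% interval within a 2-fold change in either direction in both combinations against untreated, as they did with salmeterol, CGS-21680 and low dexamethasone alone. This bound holds for the probe set used. Of 22 other probe sets of these genes past the filter, 20 differed by less than 2-fold from untreated under every treatment; the exceptions were a weaker DNAJB9 probe set (-2.21 with salmeterol and -1.18 in the CGS-21680 combination) and a CALR probe set (-1.04 with high dexamethasone), which were not tested singly. On the probe sets used, 17 of the 18 lay within the bound with high dexamethasone, the exception being CALR (-0.55, 95% interval -1.06 to -0.03), which read 12.69 and 11.98 on the 2 arrays of that group. The lower of those is the second high dexamethasone array described above. Whether its 3′ to 5′ difference for GAPDH plays a part was not tested.

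HSPA5 encodes BiP, the main Hsp70 chaperone of the ER and the usual marker of the response. It was at 12.75 and 12.96 untreated, 12.65 and 12.88 with salmeterol, 12.30 and 12.95 with CGS-21680, 12.75 and 13.16 with low dexamethasone, 12.90 and 13.44 with high dexamethasone, 12.89 and 12.89 with salmeterol and low dexamethasone, and 12.60 and 12.63 with CGS-21680 and low dexamethasone. Only the arrays of the CGS-21680 combination did not overlap the untreated ones. The differences were 0.04 (95% interval -0.50 to 0.58) in the salmeterol combination, where HERPUD1 rose by 2.43, and -0.24 (-0.78 to 0.30) in the CGS-21680 combination. HSP90B1, the ER Hsp90 (GRP94), was at 10.68 and 10.60 untreated, 10.92 and 11.18 with salmeterol, 10.78 and 11.00 with CGS-21680, 10.49 and 10.73 with low dexamethasone, 10.57 and 11.05 with high dexamethasone, 10.69 and 10.68 with salmeterol and low dexamethasone, and 10.47 and 10.46 with CGS-21680 and low dexamethasone. Its arrays with an agonist alone were above the untreated ones, with differences of 0.41 (0.04 to 0.78, adjusted p = 0.198) and 0.25 (-0.12 to 0.62, adjusted p = 0.824).

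DNAJB9, a BiP co-chaperone of the IRE1 branch, was at 10.09 and 10.28 untreated, 9.89 and 9.88 with salmeterol, 9.83 and 10.00 with CGS-21680, 10.32 and 10.74 with low dexamethasone, 10.49 and 10.74 with high dexamethasone, 10.17 and 10.55 with salmeterol and low dexamethasone, and 9.99 and 10.36 with CGS-21680 and low dexamethasone. Its arrays lay below untreated with each agonist and above it with each dose of dexamethasone, by -0.30, -0.26, 0.35 and 0.43, and none of these was called (adjusted p = 0.217 to 0.848). MZB1, a chaperone of immunoglobulin assembly in plasma cells, was at 12.83 and 12.83 untreated, 12.66 and 12.60 with salmeterol, 12.76 and 12.82 with CGS-21680, 12.77 and 12.70 with low dexamethasone, 12.74 and 12.23 with high dexamethasone, 12.42 and 12.53 with salmeterol and low dexamethasone, and 12.53 and 12.64 with CGS-21680 and low dexamethasone. Every treated array was below both untreated arrays, by group differences of -0.04 to -0.36 that were not called.

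The members that carry ERSE-II besides HERPUD1 did not follow it. HYOU1, a nucleotide exchange factor for BiP, differed from untreated by 0.01 (95% interval -0.45 to 0.46) and -0.05 (-0.50 to 0.41) in the salmeterol and CGS-21680 combinations. SDF2L1, a co-chaperone of the BiP complex, gave -0.43 (-0.83 to -0.02, adjusted p = 0.121) and -0.49 (-0.89 to -0.09, adjusted p = 0.102). Both intervals lie outside that of HERPUD1, 2.07 to 2.78 and 1.61 to 2.32, although the differences between genes were not tested. Among the members with ERSE, the differences in the salmeterol combination were -0.21 for the lectin chaperone CALR, 0.24 for its membrane-bound counterpart CANX, -0.11 for CRELD2 and -0.50 for XBP1, none of them called. Of the remaining folding genes, PDIA6, a disulfide isomerase, showed the largest positive difference (0.53 with high dexamethasone, 95% interval 0.10 to 0.97, adjusted p = 0.133), and P4HB, the classic protein disulfide isomerase, stayed between 12.99 and 13.34 on all arrays.

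**Figure D4:**
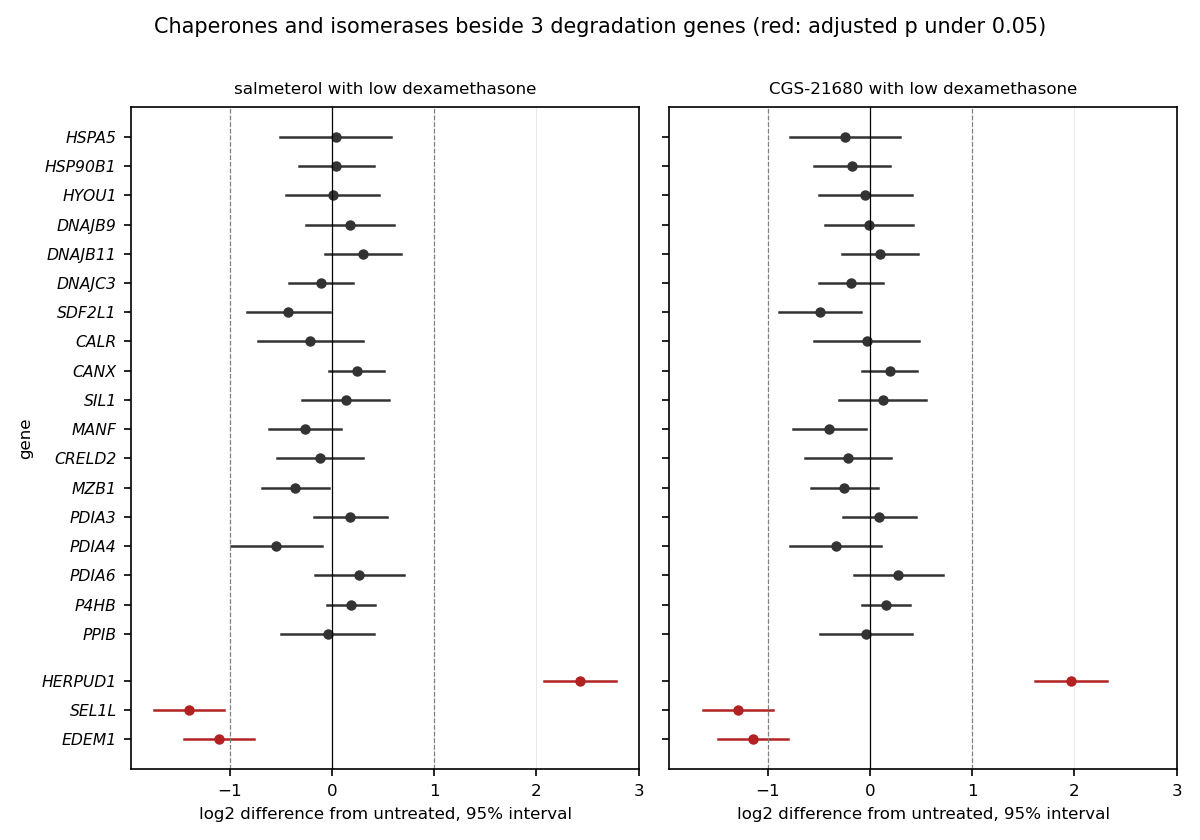
Log2 difference from untreated with its 95% interval for the 18 chaperones and isomerases and, below them, HERPUD1, SEL1L and EDEM1, in the combination of low dexamethasone with salmeterol (left) and with CGS-21680 (right); red marks an adjusted p under 0.05 and dashed lines a 2-fold change. All 18 intervals of the folding genes lie between the dashed lines in both panels, and HERPUD1 lies at 2.43 and 1.97.

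At the point of entry, members of the signal peptidase complex were lower and the channel was not called. The complex consists of the catalytic subunit SEC11C (or SEC11A) with SPCS1, SPCS2 and SPCS3. All 4 listed subunits were lower with salmeterol and low dexamethasone against untreated, beside 13.7% of all genes. They belong to a role of 13 measured members, in which no other was called lower in that comparison. SPCS1 was at 13.50 and 13.50 untreated, 12.75 and 12.84 with salmeterol, 13.08 and 13.24 with CGS-21680, 13.46 and 13.67 with low dexamethasone, 13.37 and 13.29 with high dexamethasone, 12.78 and 13.00 with salmeterol and low dexamethasone, and 13.13 and 13.32 with CGS-21680 and low dexamethasone. The 4 arrays with salmeterol were the lowest of the 14. SPCS1 fell by 0.71 (SE 0.12, 1.63-fold, adjusted p = 0.00982) with salmeterol and by 0.61 (adjusted p = 0.00505) with salmeterol and low dexamethasone, and adding salmeterol to low dexamethasone lowered it by 0.68 (adjusted p = 0.00526). The interaction, the difference between these effects of salmeterol beside and without dexamethasone, was 0.03 (95% interval -0.35 to 0.41). Against high dexamethasone the difference of the combination was -0.45 (adjusted p = 0.0364).

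SPCS2 ran in parallel, at 12.97 and 13.10 untreated, 12.51 and 12.64 with salmeterol, 12.74 and 12.94 with CGS-21680, 12.97 and 13.35 with low dexamethasone, 13.00 and 13.09 with high dexamethasone, 12.45 and 12.66 with salmeterol and low dexamethasone, and 12.77 and 12.86 with CGS-21680 and low dexamethasone. Again the 4 salmeterol arrays were the lowest. It fell in the salmeterol combination by 0.48 (SE 0.141, adjusted p = 0.0336) against untreated, 0.61 (adjusted p = 0.0186) against low and 0.49 (adjusted p = 0.0465) against high dexamethasone, while salmeterol alone gave -0.46 (adjusted p = 0.0969).

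SPCS3 and SEC11C fell in both combinations. SPCS3 was at 11.42 and 11.38 untreated, 11.07 and 11.02 with salmeterol, 11.32 and 11.36 with CGS-21680, 11.00 and 11.02 with low dexamethasone, 11.01 and 10.78 with high dexamethasone, 10.84 and 10.83 with salmeterol and low dexamethasone, and 10.76 and 11.02 with CGS-21680 and low dexamethasone. All treated arrays were below both untreated ones. SPCS3 fell by 0.57 (SE 0.11, adjusted p = 0.00478) and 0.51 (SE 0.11, adjusted p = 0.0126) with the salmeterol and CGS-21680 combinations and by 0.51 (adjusted p = 0.0224) with high dexamethasone. SEC11C was at 13.42 and 13.55 untreated and fell by 0.41 in each combination (SE 0.107, adjusted p = 0.0201 with salmeterol and 0.0286 with CGS-21680), where its 4 arrays read 13.00 to 13.14, below the other 10.

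Calls for SPCS1 in the salmeterol combination against untreated and against low dexamethasone, and for SPCS3 in that combination against untreated, held in all 14 fits that left out an array. SPCS1 with salmeterol was lost without either untreated array or salmeterol replicate 1 (adjusted p up to 0.062). SPCS1 against high dexamethasone held in 7 of 14 fits and was lost without either array of the untreated, salmeterol or high dexamethasone groups or the first array of the combination (up to 0.207) and without the filter (0.0682). SPCS2 against untreated was lost without either untreated array or the first array of the combination (up to 0.188) and without the filter (0.0798), against low dexamethasone without low dexamethasone replicate 2 or that array (up to 0.126), and against high dexamethasone in all fits except those without a low dexamethasone array (up to 0.234) and without the filter (0.109). SPCS3 was lost with high dexamethasone without either untreated array or high dexamethasone replicate 2 (up to 0.124) and in the CGS-21680 combination without either untreated array or the first array of the combination (up to 0.0745). On the mean of 3 probe sets all SPCS3 calls were lost: the differences were -0.27 (adjusted p = 0.217) and -0.34 (adjusted p = 0.162) in the combinations and -0.51 (adjusted p = 0.0605) with high dexamethasone. SEC11C in the salmeterol combination was lost without untreated replicate 2 or the second array of the combination (up to 0.116), and in the CGS-21680 combination without either untreated array or the second array of the combination (up to 0.148); the mean of its 2 probe sets gave -0.68 in the salmeterol combination.

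SEC62, which assists the channel and also serves as a receptor for the selective autophagy of ER membrane, was the only member of this role that rose. On the probe set used it was at 11.02 and 10.81 untreated and 11.54 and 11.52 with salmeterol and low dexamethasone, above the other 12 arrays. This was a rise of 0.61 (SE 0.139, 1.53-fold, adjusted p = 0.0105). The call was lost without untreated replicate 2, CGS-21680 replicate 1 or the first array of the combination (adjusted p up to 0.213). The test over all groups did not call SEC62 (adjusted p = 0.0835). Its other probe sets past the filter, not tested singly, differed by 0.58 to 0.79 in the salmeterol combination and 0.19 to 0.76 in the CGS-21680 combination. With dexamethasone alone they differed by 0.34 to 0.62 at the low and 0.48 to 0.89 at the high dose, so the pattern depends on the probe set. The channel subunits were not called: SEC61A1, which forms the pore, lay between 10.62 and 10.93 on all 14 arrays, the narrowest range among the probe sets used for the 49 members, with differences from untreated of -0.01 to -0.14. A second SEC61A1 probe set, not tested singly, differed by 0.71 with high dexamethasone and 0.47 in the salmeterol combination. SEC61B, SEC63, the translocon-associated proteins SSR1, SSR2, SSR3 and SSR4 and the signal recognition particle subunit SRP54 were likewise called nowhere.

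**Figure D5:**
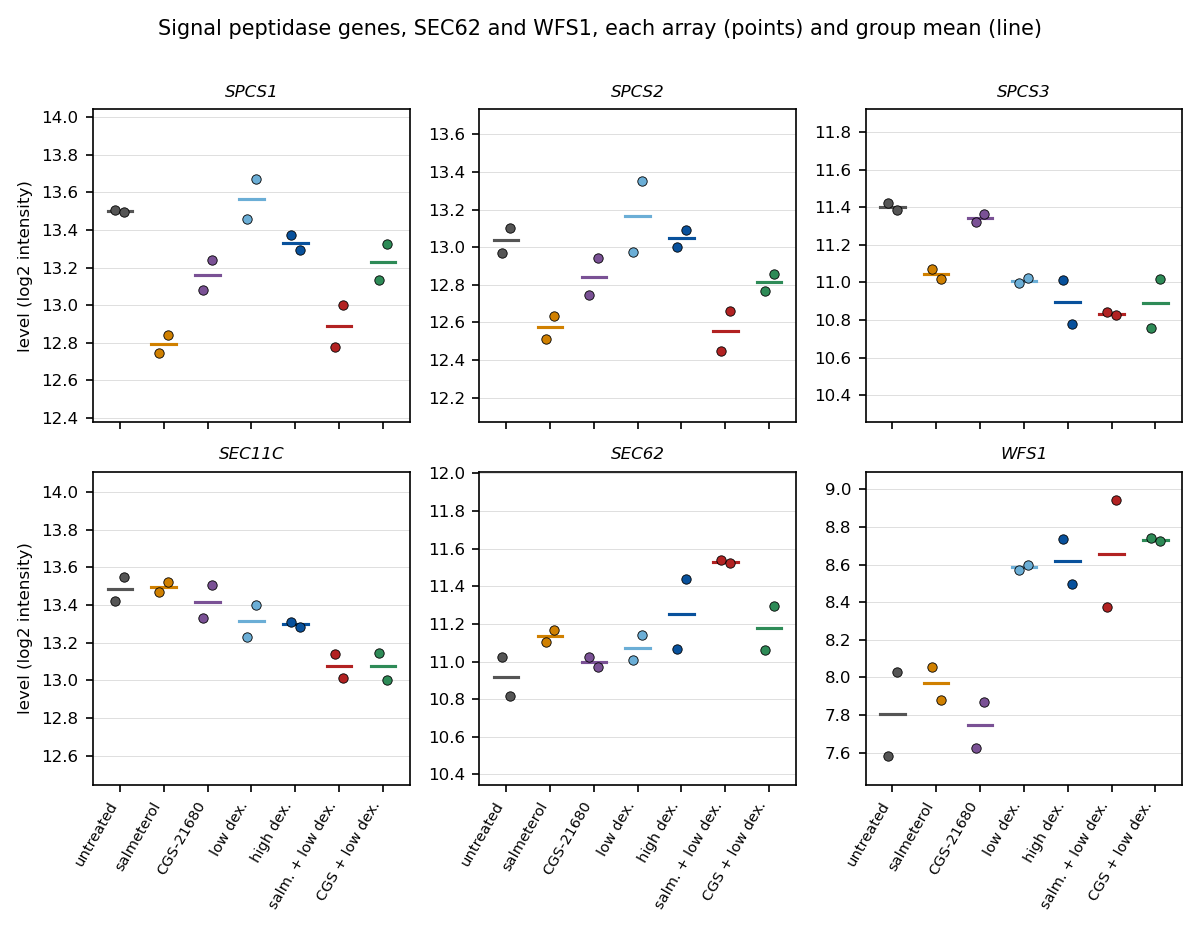
Level (log2 intensity) of the signal peptidase genes SPCS1, SPCS2, SPCS3 and SEC11C and of SEC62 and WFS1 in each group, with points for the 2 arrays and lines for their mean, on panels of equal span. The 4 arrays with salmeterol are the lowest for SPCS1 and SPCS2, the 4 arrays of the combinations are the lowest for SEC11C, and WFS1 is higher on every array with dexamethasone.

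At exit from the ER, none of the 3 COPII members was called in a pairwise comparison. SEC31A, an outer coat subunit, was called over all groups (adjusted p = 0.0363), with differences of -0.40 with salmeterol (95% interval -0.76 to -0.04) and 0.33 and 0.38 with low and high dexamethasone. SEC24D, a cargo adaptor, had the second widest range of group means (1.64) but was not called over all groups (adjusted p = 0.0793); it read 7.81 and 7.26 untreated, 6.65 and 6.37 with salmeterol, 6.88 and 7.28 with CGS-21680, 7.75 and 7.91 with low dexamethasone, 7.73 and 8.57 with high dexamethasone, 7.41 and 7.48 with salmeterol and low dexamethasone, and 7.23 and 8.32 with CGS-21680 and low dexamethasone. The salmeterol arrays were below all others, with a difference of -1.02 (95% interval -1.86 to -0.19, adjusted p = 0.156), and the arrays of the CGS-21680 combination differed by 1.09. SEC23B, an inner coat subunit, lay between 9.30 and 9.89 on the 14 arrays. It had the same value, 9.48, on untreated replicate 1, salmeterol replicate 2 and the first array of the salmeterol combination.

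WFS1, an ER membrane glycoprotein involved in calcium balance and in restraining ATF6, rose with dexamethasone. It was at 7.58 and 8.03 untreated, 8.06 and 7.88 with salmeterol, 7.63 and 7.87 with CGS-21680, 8.57 and 8.60 with low dexamethasone, 8.74 and 8.50 with high dexamethasone, 8.37 and 8.94 with salmeterol and low dexamethasone, and 8.74 and 8.72 with CGS-21680 and low dexamethasone. Every array with dexamethasone was above every array without it. WFS1 rose by 0.93 (SE 0.203, 1.90-fold, adjusted p = 0.0135) with CGS-21680 and low dexamethasone, by 0.85 (adjusted p = 0.0133) with salmeterol and low dexamethasone and by 0.81 (adjusted p = 0.0388) with high dexamethasone, and low dexamethasone gave 0.78 (adjusted p = 0.0652). The agonists added 0.07 and 0.15 to low dexamethasone, with intervals of -0.38 to 0.53 and -0.31 to 0.60. The call of the salmeterol combination was lost without untreated replicate 1 or the second array of the combination (adjusted p up to 0.102), and that of the CGS-21680 combination without untreated replicate 1 or either of its arrays (up to 0.101) and without the filter (0.0533). The call for high dexamethasone held in 5 of 14 fits, those without untreated replicate 2 or an array of CGS-21680 or of salmeterol with low dexamethasone (up to 0.229 in the others), and was lost without the filter (0.122) and on the mean of 2 probe sets (0.74, adjusted p = 0.0679).

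Other genes of the same pathways were taken from a list of 105, of which 95 were tested. Against untreated, 11 were higher and 17 lower with salmeterol and low dexamethasone, 6 and 12 with CGS-21680 and low dexamethasone, 5 and 2 with high dexamethasone, 3 and 2 with low dexamethasone, 1 and 9 with salmeterol, and 0 and 1 with CGS-21680. In the salmeterol combination these are 11.6% higher and 17.9% lower, beside 10.9% and 13.7% of all genes. In the CGS-21680 combination they are 6.32% and 12.6%, beside 7.66% and 8.13%. With high dexamethasone they are 5.26% and 2.11%, beside 4.37% and 4.21%, and with low dexamethasone 3.16% and 2.11%, beside 2.47% and 2.18%. With salmeterol alone they are 1.05% and 9.47%, beside 1.73% and 4.24%. With CGS-21680 alone 1.05% were lower, beside 0.656% of all genes called in either direction. No set test was run on the list, which was chosen with earlier results of these data known. The shares of the list and of its parts, here and below, are therefore descriptions only. Of 8 genes tested in the PERK branch downstream of EIF2AK3, 3 fell with salmeterol and low dexamethasone (37.5%, against 13.7% of all genes) and 4 with CGS-21680 and low dexamethasone (50%, against 8.13%), and none was called higher. ATF4, the transcription factor of that branch, fell by 1.29 (adjusted p = 0.0032) and 1.00 (adjusted p = 0.0179), from 10.26 and 10.32 on the untreated arrays to 9.31 and 8.70 with salmeterol and low dexamethasone and 9.55 and 9.04 with CGS-21680 and low dexamethasone. Its target TRIB3 fell by 1.09 (adjusted p = 0.00257) and 0.68 (adjusted p = 0.0384), and by 1.53 (adjusted p = 0.00219) with salmeterol alone. DDIT3 (CHOP), the death-associated factor of the branch, had the same value, 5.06, on 11 of the 14 arrays, so this probe set gives no usable difference. PPP1R15A (GADD34), which restores translation, differed by -0.20 and -0.07 (adjusted p = 0.595 and 0.91).

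The lists that follow are small, and their counts in the salmeterol combination are to be read beside the 10.9% of all genes that were higher and the 13.7% that were lower. In ER-associated degradation beyond the listed members, 3 of 16 genes rose (18.8%) and 4 fell (25.0%). UBE2J1, the ubiquitin-conjugating enzyme that works with the SEL1L complex, fell by 2.17 (SE 0.206, adjusted p = 7.79e-05) in that combination and by 1.75 (adjusted p = 0.00166) with salmeterol alone, and NGLY1, which strips glycans from extracted proteins, by 0.85 (adjusted p = 0.00157) and 0.65 (adjusted p = 0.0234). In N-glycosylation, 2 of 12 rose (16.7%) and 0 fell: MAGT1, an oxidoreductase of the oligosaccharyltransferase, by 1.80 (adjusted p = 5.32e-06) and MLEC, which binds newly glycosylated proteins, by 1.30 (adjusted p = 0.000169). In folding and oxidation, 1 of 13 rose (7.69%) and 3 fell (23.1%), led by TXNDC11, a thioredoxin-domain protein, which fell by 1.70 (adjusted p = 3.16e-06). In ER to Golgi traffic, 2 of 26 rose (7.69%), SEC13 by 0.85 (adjusted p = 0.000514) and COPA by 0.71 (adjusted p = 0.00184), and 3 fell (11.5%). Of 13 other genes of the signal recognition particle and translocon 3 fell (23.1%), led by TRAM2 (-1.42, adjusted p = 5.27e-05).

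Among 7 other membrane-bound or related regulators, 3 rose (42.9%) and 1 fell (14.3%) with salmeterol and low dexamethasone. CREB3L2, an ATF6-like factor of secretory cells, rose by 2.62 (SE 0.166, adjusted p = 3.82e-05) with low dexamethasone and fell by 1.31 (adjusted p = 0.00241) with salmeterol; the combination was 1.10 above untreated (adjusted p = 0.00116) and differed by -1.52 (adjusted p = 0.00036) from low dexamethasone. CREB3, a factor of the same family, rose by 1.32 (adjusted p = 0.000974) and 1.11 (adjusted p = 0.00427) with the salmeterol and CGS-21680 combinations. BHLHA15 (MIST1), an XBP1 target that shapes the secretory apparatus, fell by 2.23 (adjusted p = 0.000944) and 1.60 (adjusted p = 0.00932).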

How the data were processed

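RNA of 14 MM1S samples (7 groups of 2) was measured on whole-transcriptome 3′ expression arrays. The deposited values are probe set intensities on a linear scale, which the authors made with GCRMA per the submitters' processing notes, listed there with no version; how it was set is not given in the sources used. That the scale is linear was read from the values, which share a floor of 4.879 (log2 2.286) on 37.6% to 40.1% of probe sets per array. Log2 of these intensities was analysed, with no further normalization. Of 54675 probe sets, 41097 were paired with 1 gene symbol, 1801 with several and 11777 were not listed in the platform table; only the first kind was used. Each gene was read from its probe set with the highest mean among those with a log2 level of at least 4 in at least 2 arrays, which left 9301 genes.

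The 14 arrays entered 1 linear model with a mean for each of the 7 groups (limma 3.58.1, R 4.3.3), with 15 contrasts, a moderated F test over the 6 treatments against untreated, 7 residual degrees of freedom and a prior of 2.3. P-values were adjusted by Benjamini-Hochberg over the 9301 genes, and the script was tested on simulated data with 200 changed genes. The comparisons of treatments with untreated share the 2 untreated arrays. Members and gene lists were chosen with earlier results of these data known. XBP1, ERN1, ATF6, EIF2AK3, HSPA5, HSP90B1, DNAJB9, HERPUD1, SEL1L, SEC61A1, EDEM1 and MZB1 were named whatever they showed, then up to 6 of the largest rises and 6 of the largest falls per main comparison (3 in the others) among called members whose arrays did not overlap between the groups. Other members are given as parts of counts or ranges or, chosen after their values were seen, as examples of a role or an array pattern. Genes that are no members came from pathway lists, up to 3 of a list per comparison by smallest adjusted p with ATF4, DDIT3 and PPP1R15A, and only some of these are described. Alternatives were no filter, a filter of log2 6, the mean of a gene's probe sets, quantile normalization, trend and robust moderation, a replicate block, a pseudocount of 16 and leaving out each array. Promoter windows came from a RefSeq table; no genome was used. The 14 arrays limit the precision.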

Additional observations from a re-analysis of the deposited data

How the results depend on the processing

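Of 50 calls of a member in a comparison, 16 passed in all 14 fits that left out 1 array, 25 passed under all 7 other alternatives and 14 passed in both; 0 were reversed in sign. The count of members called moved by over 1.5 times in these cases. Without the level filter it was 5 over all groups, 1 for salmeterol, 1 for low dexamethasone, 5 for salmeterol with low dexamethasone against low dexamethasone, and against high dexamethasone 4 for the salmeterol and 0 for the CGS-21680 combination. Over all genes, the calls in these pairwise comparisons were also fewer, though more genes were tested. They were 397 for salmeterol and 281 for low dexamethasone, against 555 and 433 in the main fit. The salmeterol combination had 954 against low and 919 against high dexamethasone (main fit 1341 and 1358). For the CGS-21680 combination against high dexamethasone there were 181 (main fit 253). Some comparisons had more, such as high against low dexamethasone with 14 (main fit 0). The stricter filter and quantile normalization each gave 5 for low dexamethasone, with 464 and 500 called over all genes, against 433 in the main fit. The mean of a gene's probe sets gave 1 for salmeterol, 1 for low dexamethasone, 3 for high dexamethasone, and 0 for the CGS-21680 combination against either dose of dexamethasone. Over all genes that mean called 554 for salmeterol, 420 for low and 794 for high dexamethasone (main fit 555, 433 and 798). For the CGS-21680 combination it called 300 against low and 290 against high dexamethasone (main fit 316 and 253). A pseudocount of 16 gave 2 for the CGS-21680 combination against high dexamethasone, with 295 called over all genes, against 253 in the main fit. The cause was not tested for these.

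With replicate number as a block, 5 members were called for salmeterol, 3 for the CGS-21680 combination against high dexamethasone, 16 over all groups and 15 for the salmeterol combination against untreated. The calls over all genes rose as well. With the block they were 694 for salmeterol and 2488 for the salmeterol combination against untreated (main fit 555 and 2288). For the CGS-21680 combination against high dexamethasone they were 312 (main fit 253). Same-numbered arrays deviated together only in part: over 21 pairs of groups the correlation of their deviations ran from -0.173 to 0.255 (median 0.105) and exceeded 0.1 in 12, so the numbers were not treated as pairing the arrays.

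Leaving out each array gave 10 to 17 members over all groups, 9 to 15 for the salmeterol combination against untreated (9 without either untreated array or the first array of the combination), 3 to 8 for the CGS-21680 combination (3 without untreated replicate 1, 5 without untreated replicate 2 or the first array of the combination), 3 to 9 for high dexamethasone (3 without untreated replicate 1 or high dexamethasone replicate 2, 9 without high dexamethasone replicate 1), 0 to 3 for low dexamethasone and 0 to 3 for salmeterol (0 or 1 without any 1 of the 4 arrays compared). Against low dexamethasone it gave 2 to 10 for the salmeterol combination (2 without its first array or low dexamethasone replicate 2, 5 without its second array) and 0 to 1 for the CGS-21680 combination (0 without low dexamethasone replicate 1 or the second array of the combination). Against high dexamethasone it gave 2 to 7 for the salmeterol combination (2 without its first array or high dexamethasone replicate 2) and 0 to 3 for the CGS-21680 combination (3 without high dexamethasone replicate 1, 2 without either CGS-21680 array, 0 without any of 9 others). CGS-21680 alone and both interactions gave 0 to 0. High against low dexamethasone gave 0 to 1 (1 without high dexamethasone replicate 1), CGS-21680 against salmeterol 0 to 1 (1 without salmeterol replicate 1) and the combinations against each other 0 to 1 (1 without either salmeterol array). The calls over all genes in these fits are not given here, so the ranges do not single out the members.

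With 2 arrays a group, a missed threshold does not show that a member was unchanged, and the intervals bound its change. A member read by 1 probe set has no second reading on these arrays, and in the combinations the weaker probe sets of HERPUD1, SEL1L and SPCS3 differed less from untreated than the one used, while those of EDEM3 (-1.25 and -1.26 with salmeterol and low dexamethasone, against -1.21) and SEC11C (-0.96 against -0.41) differed more.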
